A study of Mus musculus with 4 samples.

Results

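The cytochrome P450 genes were described in the livers of 4 mice. A gene was taken when its symbol had the standard form of a mouse P450 gene (Cyp, a family number, a subfamily letter and a gene number). Cyp7a1, Cyp7b1, Cyp8b1 and Cyp27a1, which act in bile acid synthesis, were left out. The rule used names alone and found 89 genes among the 24138 rows of the expression table. Symbols of another form, such as those with a letter after the gene number, were not taken. Counts, families, clusters and sums below are therefore of the genes taken and can leave out other P450 genes. The mice were male, of the C57BL/6J strain and aged 18 weeks. All 4 had received the FAT-MASH diet, which serves as a model of metabolic dysfunction-associated steatohepatitis (MASH), and RvD1, that is resolvin D1, a lipid mediator made from docosahexaenoic acid. The labels give neither the dose of RvD1 nor the length of the diet. Diet and RvD1 were shared by every animal and no other group was analysed here, so an effect of either cannot be told apart from the ordinary state of these genes. The animals are called livers 1 to 4 after the labels.

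Cytochrome P450 enzymes are haem proteins that insert an oxygen atom into fat-soluble substrates. Most hepatic members sit in the membrane of the endoplasmic reticulum and take electrons from P450 oxidoreductase, and a few sit in mitochondria and take them from ferredoxin. Families Cyp1 to Cyp3 are best known for the oxidation of drugs, toxins and steroids, and family Cyp4 for the hydroxylation of fatty acids, while other families make or break down steroid hormones, retinoic acid and vitamin D. In the liver many of these genes are transcribed most strongly in hepatocytes around the central vein, and several differ between male and female mice.

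Values are FPKM, fragments scaled by transcript length and by the number of mapped fragments, so that levels of different genes can be set side by side. An estimate of depth gave 18.8 to 20.1 M fragments (M, mega) per library. It used only values within a set low window, which largely fixes the result, so it does not measure depth. The smallest values rest on very few fragments, but how many is not known. Correlations between pairs of libraries across the 51 P450 genes called expressed, as log2(FPKM + 1), lay between 0.991 and 0.996, and across all 10541 expressed genes between 0.977 and 0.987. Of 7 hepatocyte markers 6 were expressed, and Alb, the gene of albumin, was listed at 0 in all 4 livers. Apoa1 and Ttr, which encode other plasma proteins made by hepatocytes, were at 11922 and 6025 FPKM in liver 1 and were also high in the other 3. Because a gene as central to liver as Alb was at 0, other genes are given only as listed at 0 and not as silent.

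The livers held P450 transcripts at a high level, carried by few genes. Of the 89 genes 51 had a mean of at least 1 FPKM and are called expressed, where 43.7% of all rows reached this level. A mean of at least 50 FPKM was reached by 27 P450 genes, against 5.83% of all rows. The summed P450 values made up 2.54%, 2.24%, 2.73% and 3.03% of all FPKM in livers 1 to 4, a mean of 2.64% ± 0.330 (SD, n = 4). Alb, listed at 0, adds nothing to the sum over all genes, so these shares are larger by an unknown amount than they would be with its transcripts counted. Liver 2 had the lowest share and liver 4 the highest. Without Cyp2e1 the shares were 1.54%, 1.40%, 1.83% and 1.67%, so that liver 2 was again lowest and liver 3 was highest. Cyp2e1 alone gave 39.0% of the summed P450 means, the first 3 genes gave 61.8% and the first 6 gave 77.6%. The 62 genes with means below 50 FPKM together gave 1.61%.

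**Figure D1:**
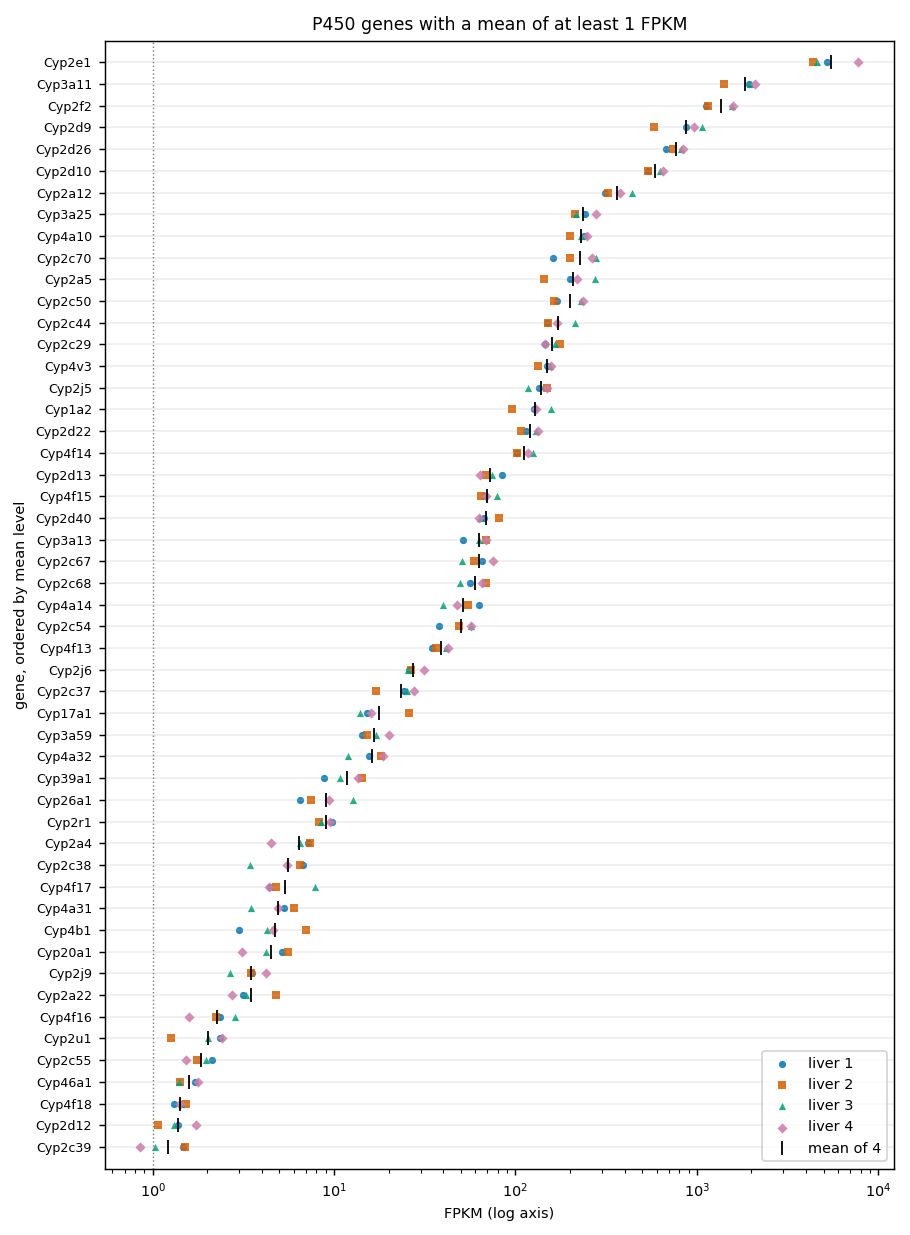
Level of each expressed P450 gene in FPKM on a log axis, with 1 point per liver and the mean marked. The points of a gene lie close together beside the distance from Cyp2e1 at a mean of 5507 FPKM to Cyp2c39 at 1.22 FPKM.

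The 51 expressed genes lay on a gradient with few clear steps. Of the 50 pairs of neighbours in the order of means, 42 had ranges over the 4 livers that overlapped, so the exact place of most genes is not fixed by these samples. Among the first 10 genes, 4 of 9 neighbouring pairs overlapped. The steps without overlap there were Cyp2e1 above Cyp3a11, Cyp2f2 above Cyp2d9, Cyp2d26 above Cyp2d10, Cyp2d10 above Cyp2a12 and Cyp2a12 above Cyp3a25. Further down the steps were Cyp4f14 above Cyp2d13, Cyp4f13 above Cyp2j6 and Cyp2r1 above Cyp2a4. In each liver separately the 10 highest P450 genes were drawn from the same 11 genes, and 8 of them were in the first 10 of every liver. Around the minimum of 1 FPKM, Cyp2d12 at a mean of 1.37 FPKM and Cyp2c39 at 1.22 FPKM were inside, and Cyp3a16 at 0.985 FPKM and Cyp3a44 at 0.854 FPKM were outside.

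Family Cyp2 was the largest, with 48 genes of which 29 were expressed, and it gave 78.5% of the summed P450 means. Family Cyp3 had 7 genes with 4 expressed and gave 15.4%. Family Cyp4 had 17 genes with 12 expressed and gave 4.85%. Only 1 of the 3 genes of family Cyp1 was expressed, and this family gave 0.910%. Within family Cyp2 the subfamilies differed in how many genes had a mean of at least 1 FPKM. All 4 Cyp2a genes, 7 of 9 Cyp2d genes and 11 of 15 Cyp2c genes were expressed, whereas 0 of 5 Cyp2b genes had a mean of 1 FPKM or more and 3 of them were listed at 0 in every liver.

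Among the enzymes of drug and toxin oxidation, Cyp2e1, which oxidises ethanol, acetone and small solvents, stood highest. The gene (XLOC_019267, chr7:140763832-140774977, mm10) had values of 5236, 4387, 4618 and 7788 FPKM in livers 1 to 4, a mean of 5507 ± 1562 FPKM (SD, n = 4). Liver 4 stood above the other 3, and the highest value was 1.78 times the lowest. As a share of all P450 values Cyp2e1 held 39.3%, 37.4%, 32.8% and 45.0%, so that it was the largest single P450 transcript in each animal. The stretch of 80 bases before its start in the RefSeq annotation (GRCm38.p6, plus strand, chr7:140763739-140763818) is shown because it precedes the most abundant transcript of the family. Capitals mark a TATAAA, the core of a TATA box.
Cyp2e1: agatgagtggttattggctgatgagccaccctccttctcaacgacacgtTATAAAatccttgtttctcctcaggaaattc

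Cyp3a11, the main mouse counterpart of the human drug-metabolising enzyme CYP3A4, followed (XLOC_016985, chr5:145854607-145879854). It had 1938, 1416, 1961 and 2085 FPKM, a mean of 1850.0 ± 296 FPKM (SD, n = 4), with liver 2 below the other 3. Its relative Cyp3a25 had 241, 214, 216 and 277 FPKM, with livers 2 and 3 almost level at the bottom. Cyp3a13, more widely expressed over tissues than the other Cyp3a genes, had 51.3, 69.0, 63.3 and 69.2 FPKM and was lowest in liver 1. Cyp3a59 had a mean of 16.7 ± 2.62 FPKM (SD, n = 4). Cyp3a16 and Cyp3a44, which are known for higher expression in females or early in life, had means below 1 FPKM, and Cyp3a57 was between 0 and 0.250 FPKM.

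Cyp2f2, which activates naphthalene and is known as a periportal gene in liver, had 1130.3, 1147, 1572 and 1588 FPKM. Livers 1 and 2 were close to each other and below livers 3 and 4, and the mean was 1359 ± 255 FPKM (SD, n = 4). Its range overlapped that of Cyp3a11. Cyp1a2, which oxidises caffeine and aromatic amines, had 127, 96.3, 158 and 129.6 FPKM, lowest in liver 2 and highest in liver 3. Cyp1a1 and Cyp1b1, the other genes that the aryl hydrocarbon receptor induces in this family, were at 0.155 to 0.303 FPKM and 0.332 to 1.36 FPKM, the latter with liver 2 alone above 0.368 FPKM. Of the 4 Cyp2a genes, Cyp2a12 had 313, 324, 437 and 378 FPKM. Cyp2a5, the coumarin hydroxylase, had 199, 143, 274 and 219 FPKM, lowest in liver 2 and highest in liver 3, a ratio of 1.92. Cyp2a4 averaged 6.37 ± 1.32 FPKM and Cyp2a22 averaged 3.47 ± 0.890 FPKM (SD over 4 livers).

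The Cyp2d genes, relatives of the human debrisoquine hydroxylase CYP2D6, gave 17.7% of the summed P450 means from 9 genes on chromosome 15. Cyp2d9, a male-biased steroid hydroxylase, had 871, 580.3, 1074 and 968 FPKM, and liver 2 was below the other 3. Cyp2d26 had 675, 742, 820.4 and 843 FPKM and Cyp2d10 had 537, 535, 626 and 647 FPKM, so that for both genes livers 1 and 2 lay below livers 3 and 4. Cyp2d22 had 114, 108, 130.1 and 133 FPKM with the same split. Cyp2d13 ran differently, at 84.7, 69.0, 74.2 and 63.5 FPKM, highest in liver 1. Cyp2d40 had 67.4, 81.0, 63.7 and 62.7 FPKM, highest in liver 2. Cyp2d12 was just above 1 FPKM, and Cyp2d11 and Cyp2d34 had means of 0.171 and 0.115 FPKM.

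The genes that are textbook targets of CAR and PXR, the nuclear receptors for foreign compounds, were at very different levels. Cyp2b10, the usual marker gene of CAR activation, was at 0.156, 0.828, 0.596 and 0.153 FPKM, below 1 FPKM in each liver. Cyp2c55, another induced gene, had a mean of 1.84 ± 0.256 FPKM (SD, n = 4), while Cyp2c29, Cyp3a11 and Cyp3a13 were above 50 FPKM. The receptors themselves were expressed, Nr1i3 (CAR) at 37.1 ± 2.97 FPKM and Nr1i2 (PXR) at 31.6 ± 1.35 FPKM (each SD, n = 4).

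Many Cyp2c and Cyp2j enzymes turn arachidonic acid into epoxides, among other reactions. All 8 genes listed as epoxygenases were expressed, where 43.7% of all rows were. Cyp2c50 had 170.0, 162, 229 and 236 FPKM and Cyp2c44 had 149, 152, 214 and 170.4 FPKM, both lower in livers 1 and 2. Cyp2c29 had 146, 176, 166 and 146 FPKM, highest in liver 2. Cyp2j5, also known in kidney, had 135, 149, 118 and 149 FPKM, lowest in liver 3. Cyp2c54 had a mean of 50.2 ± 8.97 FPKM, Cyp2j6 of 27.2 ± 2.65 FPKM, Cyp2c38 of 5.54 ± 1.48 FPKM and Cyp2c39 of 1.22 ± 0.321 FPKM (each SD, n = 4). The median deviations of these 8 genes from their own means were -0.09, 0.05, -0.01 and 0.08 in livers 1 to 4, on the log2(FPKM + 1) scale, and they did not move as a block.

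Cyp2c70, which hydroxylates chenodeoxycholic acid to make the muricholic acids of mice, had the highest mean of its subfamily, with a range that overlapped that of Cyp2c50. It had 161, 201, 279 and 264 FPKM, a mean of 226 ± 55.2 FPKM (SD, n = 4). Livers 3 and 4 were above livers 1 and 2, and the highest value was 1.73 times the lowest. Of the 4 bile acid genes left out by the rule, Cyp27a1 and Cyp7b1 showed the same split and Cyp7a1 and Cyp8b1 did not. Cyp7a1, the rate-limiting enzyme of the classic pathway, had 46.0, 62.0, 38.8 and 66.6 FPKM, highest in livers 2 and 4. Cyp8b1, the sterol 12-alpha-hydroxylase, had 291, 199, 236 and 219 FPKM, highest in liver 1. Cyp27a1 had 255, 232, 278 and 284 FPKM and Cyp7b1 had 23.5, 17.0, 46.6 and 33.9 FPKM, both lowest in liver 2.

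In family Cyp4, Cyp4a10 and Cyp4a14 are omega-hydroxylases of fatty acids and classic targets of PPAR alpha, the receptor that senses fatty acids. Cyp4a10 had 238, 199, 229.9 and 249 FPKM and was lowest in liver 2. Cyp4a14 had 62.8, 54.5, 39.8 and 47.4 FPKM, lowest in liver 3. Cyp4a32 and Cyp4a31, close copies in the same cluster, had 15.7, 18.2, 12.0 and 18.7 FPKM and 5.31, 5.98, 3.47 and 4.92 FPKM. Of these 4 genes 3 were thus lowest in liver 3, where 31.4% of all expressed genes had their lowest value. Their median deviation in liver 3 was -0.36. Ppara itself was at 60.6 ± 4.83 FPKM (SD, n = 4).

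Other abundant members of family Cyp4 were close across the livers. Cyp4v3, a fatty acid hydroxylase whose human counterpart is altered in Bietti crystalline dystrophy, had 149, 133, 155 and 157 FPKM. Cyp4f14, which inactivates leukotriene B4, had 102, 102, 125 and 117 FPKM. Cyp4f15 averaged 70.1 ± 6.29 FPKM and Cyp4f13 averaged 38.8 ± 3.87 FPKM (SD over 4 livers). Cyp4f18, known from neutrophils and other myeloid cells, had 1.31, 1.52, 1.43 and 1.42 FPKM. Its values were close together, whereas the neutrophil markers summed to 10.4, 18.6, 11.5 and 8.33 FPKM, with 2 of 4 of them expressed. Cyp4f16 had a mean of 2.25 ± 0.512 FPKM (SD, n = 4).

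Enzymes of retinoic acid, vitamin D and steroid hormones were low or at 0. Cyp26a1, which degrades retinoic acid, had 6.52, 7.49, 12.7 and 9.36 FPKM, highest in liver 3, while Cyp26b1 and Cyp26c1 had means below 1 FPKM. Cyp2r1, the vitamin D 25-hydroxylase, was even across animals at 9.76, 8.25, 8.46 and 9.46 FPKM. Cyp27b1, which makes the active hormone and is known from kidney, was between 0 and 0.0425 FPKM, and Cyp24a1, which breaks it down, was listed at 0 in all 4. Of the 6 steroid synthesis genes, Cyp11a1, Cyp11b1, Cyp11b2 and Cyp19a1 were listed at 0 in all 4 and Cyp21a1 was between 0.552 and 0.732 FPKM. Cyp17a1, which is expressed in mouse liver as well as in gonads and adrenal, had 15.1, 25.8, 13.8 and 15.9 FPKM, with liver 2 above the other 3.

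Other expressed genes outside these groups included Cyp39a1, an oxysterol hydroxylase, at a mean of 11.8 ± 2.54 FPKM, and Cyp20a1 at 4.50 ± 1.08 FPKM. Cyp2j9 was at 3.48 ± 0.646 FPKM and Cyp46a1, the cholesterol 24-hydroxylase known from brain, at 1.58 ± 0.195 FPKM (each SD, n = 4). Cyp2c67, Cyp2c68, Cyp2c37, Cyp4f17, Cyp4b1 and Cyp2u1, also expressed, are given below. Of the 38 genes below 1 FPKM, 15 were above 0 in every liver, 6 were listed at 0 in some livers and 17 were listed at 0 in all 4, where 32.2% of all rows were listed at 0 throughout. Those 6 were Cyp3a57, Cyp2j8, Cyp2c65, Cyp26c1, Cyp27b1 and Cyp2j13, and none of them passed 0.250 FPKM in any liver. The 17 were Cyp11a1, Cyp11b1, Cyp11b2, Cyp19a1, Cyp24a1, Cyp2b13, Cyp2b19, Cyp2b23, Cyp2c66, Cyp2j11, Cyp2j12, Cyp2t4, Cyp2w1, Cyp4a29, Cyp4f37, Cyp4f40 and Cyp4x1. Cyp24a1 and Cyp4x1 share their spans with other rows of the table. Among those above 0 throughout, Cyp2g1, known from olfactory mucosa, reached a mean of 0.830 FPKM, Cyp2s1 0.380 FPKM and Cyp4f39 0.0724 FPKM.

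Between animals, expressed P450 genes were spread more widely than the typical gene, although few had an extreme value. The median SD of log2(FPKM + 1) over the 4 livers was 0.23 for the 51 P450 genes and 0.16 for all expressed genes. It was 0.22 for the 27 P450 genes at 50 FPKM and more and 0.16 for all 1407 genes at that level. The gap was wider between 1 and 50 FPKM, with 0.27 for 24 P450 genes and 0.16 for all. The median ratio of the highest to the lowest liver was 1.47 for P450 genes and 1.34 for all. A ratio of at least 1.5 was reached by 24 of 51 P450 genes, against 28.4% of all expressed genes. At a ratio of at least 2 the count was 1 of 51, against 6.54% of all.

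That gene was Cyp4b1, an enzyme known from lung, at 3.00, 7.02, 4.27 and 4.60 FPKM, with liver 2 at 2.34 times liver 1. A single liver far from the other 3 was defined by Dixon's ratio, the gap to the nearest other liver over the whole range, past its 95% critical value for 4 samples. It was found for 1 of 51 P450 genes, against 5.46% of all expressed genes. The gene was Cyp4f17, at 4.41, 4.81, 7.87 and 4.38 FPKM, with liver 3 apart. When each library was rescaled to the same sum this count was 4 of 51, made up of Cyp2c37, Cyp2c44, Cyp17a1 and Cyp3a11, and Cyp4f17 was no longer among them.

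**Figure D2:**
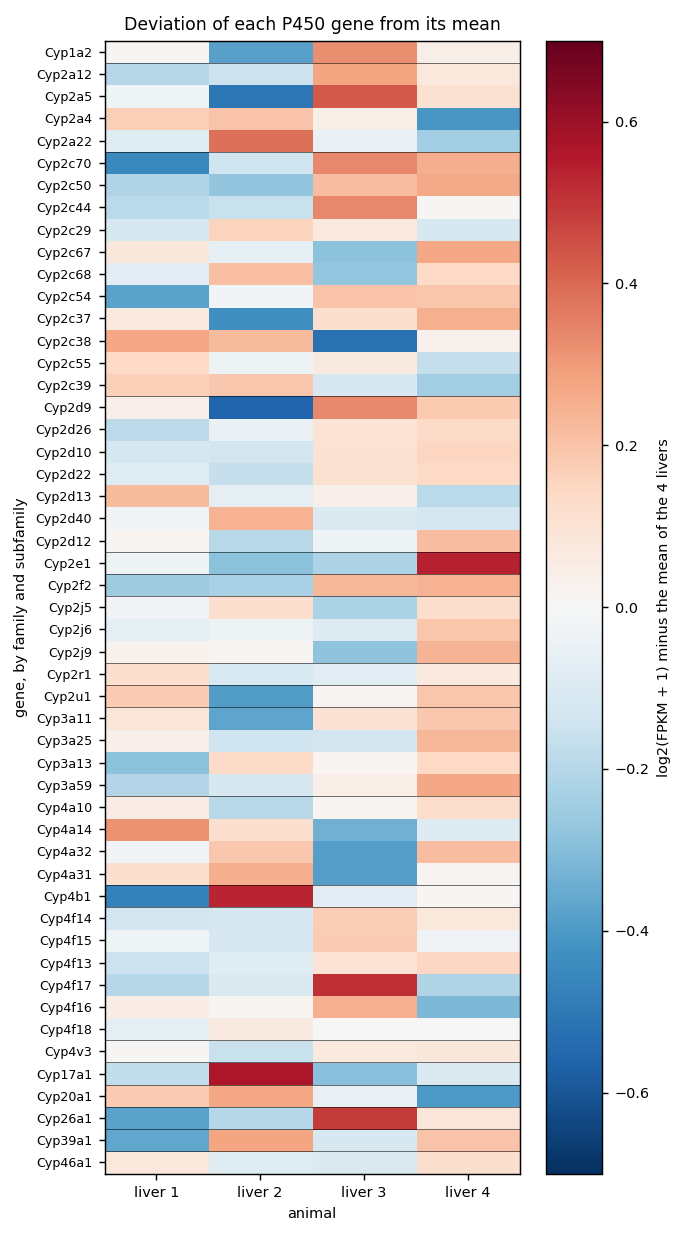
Heat map of the deviation of each expressed P450 gene, by family, from its own mean over the 4 livers, on the log2(FPKM + 1) scale, with red above and blue below the mean. The median deviations are -0.03, -0.09, 0.03 and 0.11 in livers 1 to 4, and single genes lie on both sides of 0 in every liver.

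The median P450 gene was slightly lower in liver 2 and higher in liver 4 than its own mean, in values as deposited. Median deviations from the gene means were -0.03, -0.09, 0.03 and 0.11 in livers 1 to 4, beside -0.01, -0.02, -0.01 and 0.04 for all expressed genes. For P450 genes the signs were the same when the libraries were scaled by median ratios or to equal sums. With equal sums P450 genes stood at 0.03 in liver 4, while the medians of all expressed genes changed sign, to 0.01, 0.01, 0.02 and -0.04 in livers 1 to 4. The lowest value was in livers 1 to 4 for 14, 16, 11 and 10 P450 genes, where the shares of all expressed genes were 20.6%, 29.9%, 31.4% and 18.1%. The 27 genes of at least 50 FPKM had median deviations of -0.03, -0.14, 0.10 and 0.14, beside -0.03, -0.04, -0.06 and 0.12 for all genes at that level, so that in liver 4 the abundant P450 genes were close to other abundant genes. They had their lowest value in livers 1 to 4 for 8, 12, 4 and 3 genes, beside 24.5%, 33.8%, 37.6% and 3.77% of all genes at that level. Their highest value was in livers 1 to 4 for 2, 3, 9 and 13 genes, beside 12.2%, 16.5%, 18.3% and 53.0%. With equal sums the highest value lay in liver 3 for 16 of the 27, beside 28.8% of all genes at that level, and in liver 4 for 3, beside 23.4%, so the place of liver 4 depends on the scaling.

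Genes of the zone around the central vein were mostly lowest in liver 2. Of 8 pericentral P450 genes, Cyp2e1, Cyp3a11, Cyp1a2, Cyp2a5, Cyp2c50 and Cyp2c37 were lowest in liver 2, that is 6 of 8, against 29.9% of all expressed genes. Cyp2c37 had 24.3, 16.9, 25.1 and 27.6 FPKM. The exceptions were Cyp2c54, lowest in liver 1 at 38.0 FPKM, and Cyp2c29, which was highest in liver 2. The median deviations of the 8 genes were -0.03, -0.33, 0.16 and 0.19 in livers 1 to 4, and 6 of 8 were lowest in liver 2 under both other scalings as well. In RNA from whole tissue, fewer cells of a type and less RNA per cell cannot be told apart.

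Pericentral genes that are not P450 genes (Glul, Oat, Slc1a2, Axin2, Lgr5, Rhbg, Lect2 and Gulo) had median deviations of 0.33, -0.39, 0.11 and 0.06, and 6 of 8 were also lowest in liver 2. Their values differed from those of the P450 genes in liver 1, where 5 of 8 had their highest value and 0 of 8 pericentral P450 genes did, beside 17.9% of all expressed genes. The difference between the lists was not tested. Periportal genes that are not P450 genes had median deviations of -0.10, 0.01, 0.06 and 0.05. Of the 2 periportal P450 genes, Cyp17a1 was highest in liver 2 and Cyp2f2 was near its lowest value there.

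Liver 2 also stood apart in other lists. Acute phase genes, which hepatocytes raise during inflammation, had median deviations of -0.25, 1.05, -0.80 and -0.16, and 9 of 10 were highest in liver 2, beside 22.0% of all expressed genes. Their summed levels were 5309, 13407, 4587 and 6176 FPKM. Saa1, a serum amyloid gene, had 139, 2135, 45.6 and 131 FPKM. Among markers of other cell types, all 6 macrophage markers were expressed and summed to 179, 236, 176 and 254 FPKM, and all 5 stellate cell and fibroblast markers to 228, 289, 185 and 211 FPKM. All 5 endothelial markers were expressed, and 4 of them (Stab2, Pecam1, Kdr and Lyve1) were highest in liver 2, with median deviations over the 5 of -0.17, 0.40, -0.13 and 0.10. Clec4g, the most abundant, was highest in liver 4. The 5 endothelial markers summed to 38.89, 49.865, 41.895 and 50.006 FPKM, so that livers 2 and 4 were almost level. Without Clec4g, again chosen after the values were seen, the endothelial sums were 12.2, 21.4, 13.5 and 16.4 FPKM. The 6 expressed hepatocyte markers summed to 21051, 19614, 18157 and 22885 FPKM, with median deviations of 0.04, -0.11, -0.05 and 0.06. Serpina1c among them was listed at 0 in livers 3 and 4. Without it, a sum chosen after the values were seen, the markers gave 19362, 18023, 18157 and 22885 FPKM, with livers 2 and 3 almost level. Of the 6 expressed markers only 1, Cps1, was lowest in liver 2. The part of inflammation or of cell makeup in the lower pericentral P450 values of liver 2 was not tested.

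**Figure D3:**
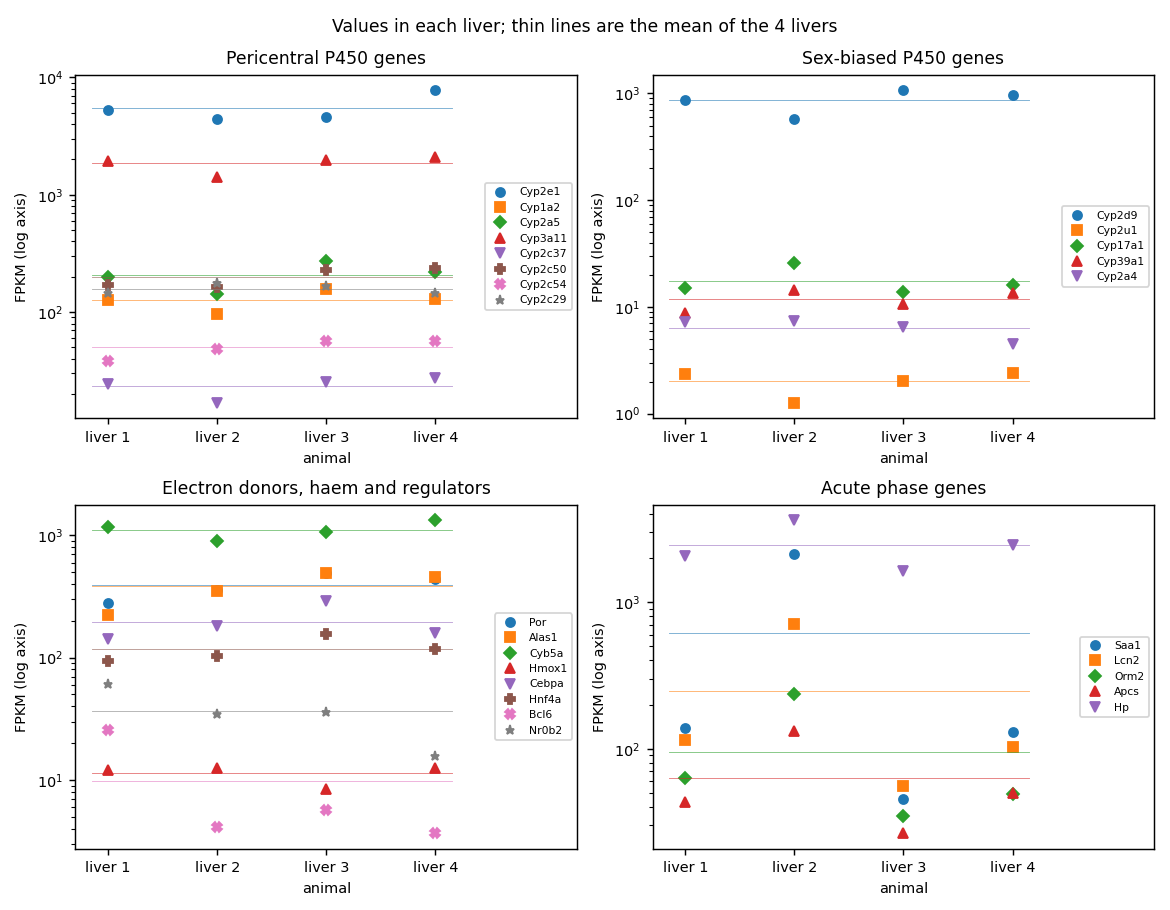
Value of single genes in each liver in FPKM on a log axis, in panels for pericentral P450 genes, sex-biased P450 genes, electron donors with haem enzymes and regulators, and 5 of the 10 acute phase genes, with thin lines at the mean of the 4 livers. In liver 2 most pericentral P450 genes lie below their line, and Saa1 reaches 2135 FPKM.

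Genes whose level differs between male and female mice also split in liver 2. Both male-biased genes among those taken, 2 of 2, were lowest there, where 29.9% of all expressed genes had their lowest value. Cyp2d9 was at 580.3 FPKM in liver 2. Cyp2u1 was at 1.27 FPKM there, with 2.37, 2.02 and 2.41 FPKM in livers 1, 3 and 4. Of 9 female-biased genes 3 were expressed, and Cyp17a1, Cyp39a1 and Cyp2a4 were all highest in liver 2, where 22.0% of all expressed genes had their highest value. Cyp39a1 had 8.82, 14.3, 10.7 and 13.5 FPKM, and Cyp2a4 had 7.17, 7.35, 6.50 and 4.48 FPKM, so that liver 2 led by a small margin over liver 4 in the first and over liver 1 in the second. Of the others, Cyp2b9 was highest in liver 2 at 1.41 FPKM, beside 0.751, 0.0874 and 0.395 FPKM in livers 1, 3 and 4. Cyp2c69 was between 0.0380 and 0.0835 FPKM, highest in liver 2 but too low for that order to be read. Cyp3a44 was highest in liver 1, Cyp2c40 was highest in liver 4 and Cyp3a16 was lowest in liver 2. Cyp2b13 was listed at 0 in all 4. With so few genes above 1 FPKM these counts describe single genes.

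The 12 genes listed for electron transfer to P450 and for the making and breakdown of haem were all expressed. Por, the P450 oxidoreductase, had 279.6, 357, 496 and 437 FPKM, and Alas1, the rate-limiting enzyme of haem synthesis in liver, had 223, 349, 497 and 460.2 FPKM. Both were lowest in liver 1 and highest in liver 3. Alas1 was the 1 gene of the 12 with a range of at least 2-fold, at 2.23-fold, beside 6.54% of all expressed genes. Cyb5a, the cytochrome b5 that assists some P450 reactions, had 1164, 899.8, 1062 and 1325 FPKM, lowest in liver 2 and highest in liver 4, as were Cyp2e1 and Cyp3a11. Hmox1, which degrades haem, had 12.1, 12.5, 8.50 and 12.5 FPKM, with liver 3 below the other 3.

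All 12 transcription factors listed as regulators of P450 genes were expressed, where 43.7% of all rows were, and 3 had a range of at least 2-fold, beside 6.54% of all expressed genes. Bcl6, a repressor known to act on female-biased genes in male liver, had 25.6, 4.14, 5.66 and 3.69 FPKM, highest in liver 1. Nr0b2, the small heterodimer partner that represses bile acid synthesis, had 61.1, 34.3, 36.1 and 15.7 FPKM. Cebpa had 142, 181, 293 and 160.0 FPKM, and Hnf4a, a central factor of hepatocyte identity, had 93.9, 104, 156 and 118 FPKM. Cebpa and Hnf4a were thus both lowest in liver 1 and highest in liver 3, as were Por and Alas1. Ahr was at 5.23, 4.03, 3.92 and 3.85 FPKM.

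The P450 genes lie on 14 chromosomes, but 64 of the 89 fall into 7 clusters of at least 4 genes with gaps under 1 Mb. On chromosome 15, from Cyp2d22 to Cyp2d26 (chr15:82370527-82794245), 7 of 9 genes were expressed, and Cyp2d9 gave 35.0% of the summed means of the cluster. On chromosome 5, from Cyp3a57 to Cyp3a59 (chr5:145345270-146113283), 3 of 6 were expressed and Cyp3a11 gave 87.9%. On chromosome 7, from Cyp2s1 to Cyp2t4 (chr7:25802476-27158564), 5 of 13 were expressed and Cyp2f2 gave 69.9%. On chromosome 19, from Cyp2c55 to Cyp2c70 (chr19:39007019-40187286), 10 of 14 were expressed and no gene dominated, with Cyp2c70 at 28.7%. High and low genes were often neighbours. Cyp2d11 at a mean of 0.171 FPKM lay between Cyp2d22 at 121 FPKM and Cyp2d10 at 586 FPKM. On chromosome 7, Cyp2f2 at 1359 FPKM lay next to Cyp2t4, listed at 0 in all 4.

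The other 3 clusters gave smaller parts of the summed P450 means, at 2.17%, 1.19% and 1.62%. Of the 7 genes from Cyp4x1 to Cyp4b1 on chromosome 4, 5 were expressed and Cyp4a10 gave 74.9% of the summed means. Of the 7 genes from Cyp2j13 to Cyp2j5 on the same chromosome 3 were expressed, and Cyp2j5 gave 81.7%. Of the 8 genes from Cyp4f39 to Cyp4f13 on chromosome 17, 5 were expressed and Cyp4f14 gave 48.9%.

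**Figure D4:**
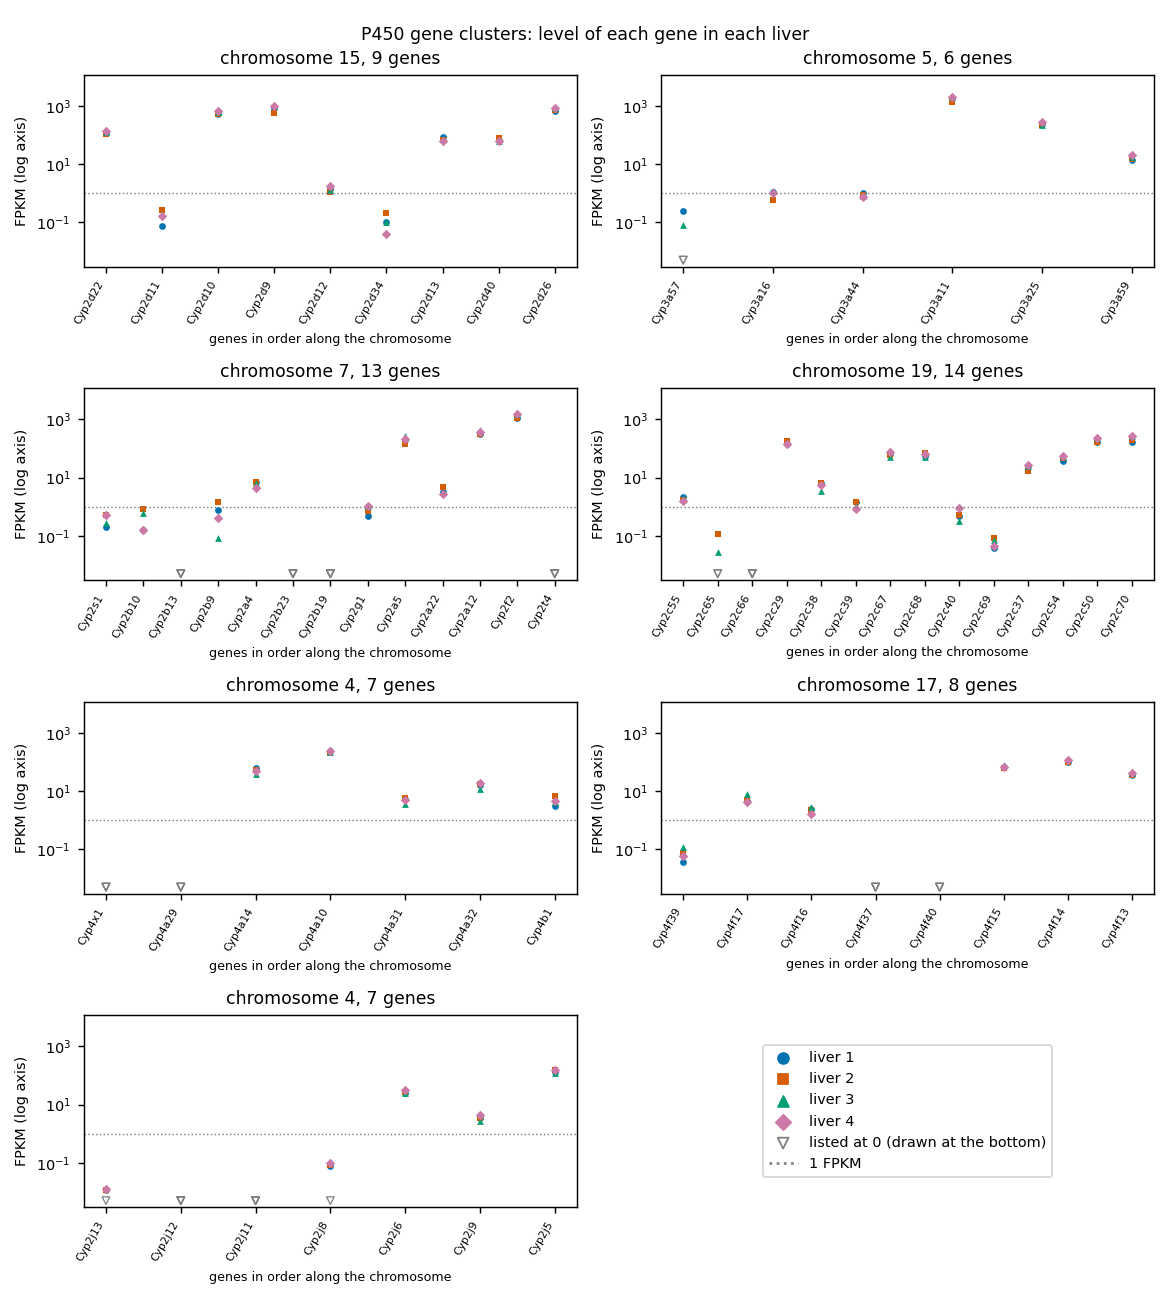
Value of each gene of the 7 clusters in each liver, in FPKM on a log axis, with genes in their order along the chromosome and values listed at 0 drawn as open triangles at the bottom. Genes above 100 FPKM stand beside genes below 1 FPKM within the same cluster.

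Neighbouring genes in these clusters are often near copies. Among 88 P450 genes with a coding sequence in GENCODE vM21, the closest other member matched in at least 95% of bases for 17 genes and in at least 90% for 33, of which 21 were expressed. How reads that match several copies were shared out is not given in the sources used here, so the values of these genes are uncertain. Even so, close copies were listed at very different levels. Cyp2a4 and Cyp2a5 had 98.4% identical coding sequence, with means of 6.37 and 209 FPKM. Cyp2c67 and Cyp2c69 had 97.7% identity, with means of 62.6 and 0.0595 FPKM. Cyp2d9 and Cyp2d11 had 93.3% identity, with means of 873 and 0.171 FPKM. Cyp2c67 and Cyp2c68, at 97.1% identity, were in contrast level at 62.6 and 60.2 FPKM.

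**Figure D5:**
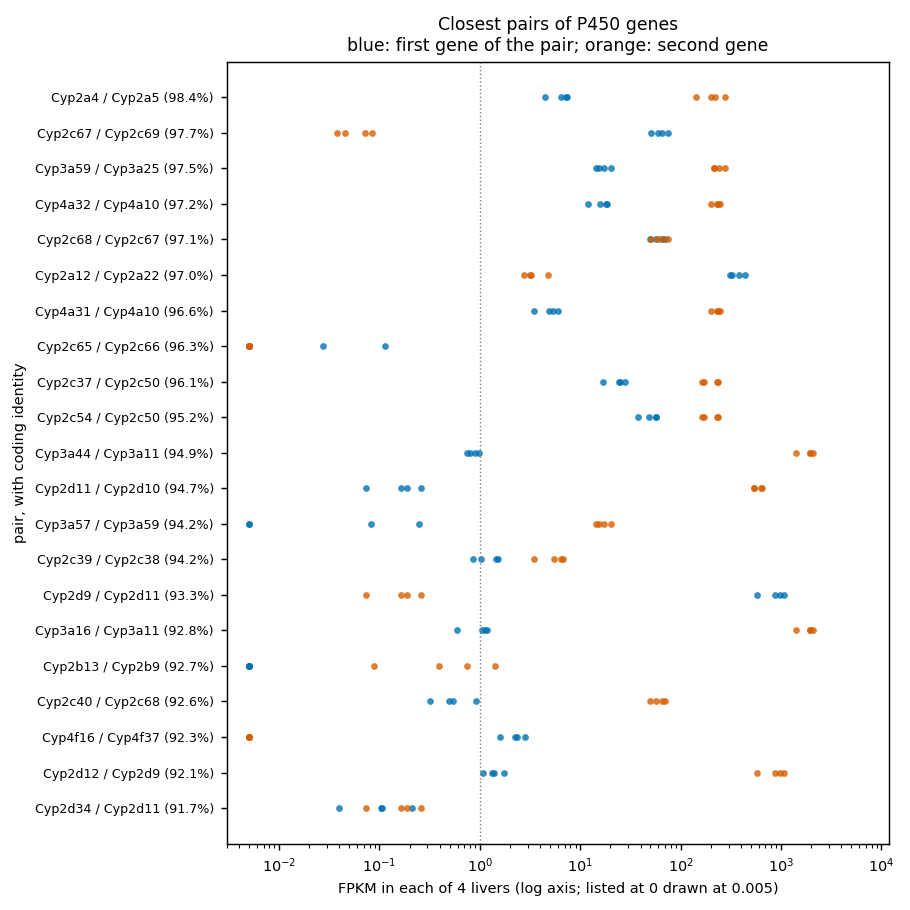
Values in the 4 livers, in FPKM on a log axis, of the closest pairs of P450 genes with at least 90% identical coding sequence, the first gene in blue and the second in orange, with values listed at 0 drawn at the left edge. Cyp2a4 and Cyp2a5, the pair with 98.4% identity, lie apart at means of 6.37 and 209 FPKM.

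Promoter sequences were compared for these copies, using the RefSeq table for GRCm38.p6, which held 80 promoters of 70 of the 89 genes. The stretches below are the 80 bases before the annotated start, in the direction of transcription, and capitals mark TATAAA on either strand (TTTATA when read from the other strand). They are shown because the genes of each group are near copies with very unequal levels. The regions are chr15:82452297-82452376 (plus strand) for Cyp2d9, chr15:82407195-82407274 (minus strand) for Cyp2d10, chr15:82394023-82394102 (minus strand) for Cyp2d11, chr7:26835259-26835338 (plus strand) for Cyp2a5 and chr7:26307112-26307191 (plus strand) for Cyp2a4.
Cyp2d9: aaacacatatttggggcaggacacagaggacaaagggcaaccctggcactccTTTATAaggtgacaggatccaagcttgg
Cyp2d10: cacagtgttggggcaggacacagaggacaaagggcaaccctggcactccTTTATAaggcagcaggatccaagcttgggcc
Cyp2d11: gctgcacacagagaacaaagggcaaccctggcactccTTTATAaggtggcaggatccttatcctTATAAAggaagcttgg
Cyp2a5: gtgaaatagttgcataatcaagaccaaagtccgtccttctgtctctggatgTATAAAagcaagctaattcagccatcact
Cyp2a4: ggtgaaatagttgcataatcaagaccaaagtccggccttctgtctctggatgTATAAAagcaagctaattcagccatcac

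The means of Cyp2a4 and Cyp2a5 differed 32.8-fold. The 100 bases before the start of Cyp2a4, placed where they fitted best in the promoter sequence of Cyp2a5, matched in 98 of 100 bases. Placed in the same way, the bases before the start of Cyp2d9 matched Cyp2d11 in 85 of 100 and Cyp2d10 in 86 of 100. All 5 printed stretches hold TATAAA on 1 strand or the other, and that of Cyp2d11 holds it on both strands at different places. The presence of these letters therefore did not separate high from low genes within the pairs. Over the 250 bases before each start, TATAAA on either strand was found in 27 of the 80 P450 promoters (33.8%) and in 12.4% of all 32851 promoters in the table. By level, 13 of 21 genes of at least 50 FPKM had it, 5 of 18 genes between 1 and 50 FPKM and 8 of 31 genes below 1 FPKM.

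The letters CAAAGTCCA, an element bound by HNF4 alpha, were found on either strand in 8 of 80 P450 promoters (10%) and in 0.384% of all promoters. The 8 genes were Cyp3a11, Cyp2c70, Cyp2c67 and Cyp2c68, all of at least 50 FPKM, and Cyp3a16, Cyp2c40, Cyp2c69 and Cyp2c65, all below 1 FPKM. Between 1 and 50 FPKM it was in 0 of 18 genes. The 49-base stretches around the element, in capitals, are shown because they occur in both high and low genes. Their regions, on the minus strand except for Cyp2c65, are chr5:145879935-145879983 for Cyp3a11, chr19:40187322-40187370 for Cyp2c70, chr19:39649139-39649187 for Cyp2c67, chr19:39741150-39741198 for Cyp2c68, chr5:145469794-145469842 for Cyp3a16, chr19:39812831-39812879 for Cyp2c40, chr19:39886816-39886864 for Cyp2c69 and chr19:39060870-39060918 for Cyp2c65.
Cyp3a11: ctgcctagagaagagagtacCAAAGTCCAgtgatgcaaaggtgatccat
Cyp2c70: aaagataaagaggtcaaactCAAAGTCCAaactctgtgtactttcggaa
Cyp2c67: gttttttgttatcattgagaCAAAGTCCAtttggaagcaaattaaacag
Cyp2c68: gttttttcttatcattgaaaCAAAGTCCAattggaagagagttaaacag
Cyp3a16: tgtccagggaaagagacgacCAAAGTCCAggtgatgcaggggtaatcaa
Cyp2c40: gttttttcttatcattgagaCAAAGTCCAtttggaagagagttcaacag
Cyp2c69: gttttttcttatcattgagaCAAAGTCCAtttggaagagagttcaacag
Cyp2c65: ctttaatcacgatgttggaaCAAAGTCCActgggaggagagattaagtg

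The stretches of Cyp2c40 and Cyp2c69 are identical, and those of Cyp2c67, Cyp2c68, Cyp2c40 and Cyp2c69 come from near copies, so they are not separate cases. TTGCNNAA, a C/EBP element, was in 20 of 80 P450 promoters (25%) beside 9.56% of all. These belong to 16 of 70 genes, with near copies such as Cyp2a4 and Cyp2a5 among them. GCGTG, the core of the element bound by the aryl hydrocarbon receptor, was in 15 of 80 (18.8%) beside 28.2% of all. The DR1 repeat bound by PPAR alpha and HNF4 alpha, searched as AGGTCA and AGGTCA with 1 free base between, was in 0 of 80 beside 0.0335%. All motifs were searched on both strands, and TATAAA can overlap the others. A match says only that the letters occur in the window.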

How the data were processed

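Total RNA from 4 livers was sequenced after poly(A) enrichment, per the labels' protocols. The deposited table gives 1 value per row and liver, and its header names no unit. The values were taken as FPKM made by the authors, from their form and totals. The submitters' processing notes name FastQC 0.10.1, Trim Galore 0.6.3, cutadapt, STAR 2.7.6a, Cufflinks 2.2.1 and the mm10 build, without their order or settings. Strand use and the scaling between libraries are not given in the sources used here. Columns were matched through the sample descriptions, and 0 were left unmatched.

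Values were used as deposited, or as log2(FPKM + 1), which understates differences of low genes. The value of 1 FPKM was the minimum mean for an expressed gene. With 1 group there was no test between groups. Dixon's ratio was applied to each gene, without correction for the number of genes. For each kind of count, the share over all rows or all expressed genes is given where it is first used. Each table start had 1 added, since 37 of 88 P450 starts then equalled the GENCODE vM21 start and 4 did before. Depth was estimated from values within a set low window, in genes with 1 annotated transcript, and that window largely fixes the estimate. Nothing in the labels says that samples were processed apart, and the SD measures the spread between these 4 animals.

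The P450 genes and the 25 lists used were chosen with earlier results of these data known. Values in every liver are given for the 20 P450 genes of highest mean and for expressed genes with an isolated liver or a 2-fold range. Other genes named with values in every liver were chosen after their values were seen. Alternatives were other minimums, pseudocounts, scalings, sums and leaving out each liver. Promoters came from RefSeq (GRCm38.p6), coding sequences from GENCODE vM21, aligned with edlib 1.3.9.post1. Scripts in Python 3.11.15 with numpy 2.4.6 and pandas 2.3.3 were tested on simulated data.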

Additional observations from a re-analysis of the deposited data

Results flagged for a closer look

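In 120 genes examined (66 of them P450 genes), 8 had 1 liver farther from the other 3 than Dixon's 95% critical value allows. Chance marks about 1 in 20 groups of 4, and no cause was tested. Of the P450 genes, Cyp4f17 was highest in liver 3 at 7.87 FPKM, against 4.38 to 4.81 FPKM in the others. Cyp1b1, which acts on oestrogens and polycyclic hydrocarbons, was highest in liver 2 at 1.36 FPKM, against 0.332 to 0.368 FPKM.

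Among the related genes, Axin2 was highest in liver 3 at 3.87 FPKM, Ahr was highest in liver 1 at 5.23 FPKM and Orm1 was highest in liver 2 at 1631 FPKM. Lect2 was lowest in liver 2 at 109.7 FPKM, Gulo was lowest in liver 2 at 225 FPKM and Hmox1 was lowest in liver 3 at 8.50 FPKM.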

How the results depend on the processing

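Of 114 alternative values for 13 results, 93 stayed within the set limits and 21 moved. The limits were a ratio of 1.5 for counts, 0.019 for the median SD and 0.086 for median deviations. For the share the limit was its SD over the livers. The limit for median deviations is about as large as most of those deviations, so staying within it says little. Among the P450 median deviations 0 changed sign, and the other results cannot change sign. No paired analysis was possible because there is 1 group. The isolated-liver count was not recomputed with a liver left out, since groups of 3 are not tested, and no P450 gene was listed at 0 in one liver and above 1 FPKM in another, so that alternative had nothing to leave out. With equal library sums 4 P450 genes had an isolated liver (5.28% of all genes) and the P450 median deviation, liver 4, was 0.026. With a minimum of 0.1 FPKM, 10 of 64 genes had a 2-fold range (19.9% of all genes) and 2 an isolated liver (5.73%). With a minimum of 5 FPKM, 0 of 39 genes had a 2-fold range (2.95%) and 5 were lowest in liver 4 (11.3%). With no filter, 18 of 72 genes had a 2-fold range (32.1%), 4 had an isolated liver (11.3%), 17 were lowest in liver 3 (25.9%) and the median SD was 0.21, since low genes enter. A pseudocount of 0.1 gave a median SD of 0.27 and one of 5 gave 0.17. Without the 10 rows of highest mean, Cyp2e1 among them, the P450 share was 1.92%. Leaving out 1 liver gave 0 to 1 genes with a 2-fold range (3.89% to 5.03% of all genes), the value of 0 coming without liver 1 or liver 2, and a median SD of 0.18 to 0.22, with all genes at 0.14 to 0.17. It gave 17 to 24 genes lowest in liver 1 (26.3% to 34.9% of all genes), 19 to 26 in liver 2 (36.8% to 39.97%), 14 to 17 in liver 3 (36.8% to 39.9%) and 11 to 13 in liver 4 (22.8% to 27.0%), since each liver left out passes its genes to the others. The P450 share was 2.51% to 2.77%. Apart from these constructions, the cause was not tested. The median SD of P450 genes was above that of all genes in each setting tried. Genes below about 1 FPKM are limited by depth, which was not measured.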
